A study of Mus musculus with 3 samples.

Results

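Potassium channel genes were followed on 3 Affymetrix arrays of cultured mouse peritoneal macrophages, starting from Kcnj2, the gene with the lowest value relative to PBS on the intralipid array. The members are all genes whose symbol in GEO's platform annotation starts with Kcn, taken from probe sets with 1 symbol, with the probe set of the highest mean used where a gene had several. This gave 92 of the 19938 genes measured, from 95 probe sets, of which Kcna2, Kcnh8 and Kcnma1 had 2 each. Because the family was looked up on account of Kcnj2, the values of Kcnj2 below describe why it was chosen, and the question put to the other 91 members was whether they differed in the same direction.

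All cells came from male Angptl4-/- mice of strain C57Bl/6J, whose peritoneal macrophages were drawn out with an injection of 4% thioglycollate, a sterile irritant, collected 3 days later and cultured for 2 days. They were then exposed for 6 h to 1 of 3 conditions. The first was intralipid, an emulsion of triglyceride droplets, at 0.5 mM triglyceride, given to cells that had spent the preceding 1.5 h with recombinant ANGPTL4 of the mouse (2.5 µg/mL), a secreted inhibitor of lipoprotein lipase. The second was the same dose of intralipid without ANGPTL4, and the third was PBS. Every group carries the Angptl4 deletion, so the added protein was by genotype the only ANGPTL4 present, and no wild-type cells were analysed here. The Angptl4 probe set was listed at 4.92 on every array, which without wild-type cells does not check the deletion. Each group is 1 array hybridised with RNA pooled from 3 samples, and the age of the mice is not given in the sources used here. With 1 array per group there is no spread between samples to test against, so no p-value is given. Words such as "higher" or "lower" apply to these arrays alone.

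Potassium channels set the resting membrane potential by letting potassium leave or enter the cell through a pore that is selective for it. Inward rectifiers (Kcnj genes) pass current most easily inward and hold the resting potential near the potassium equilibrium, two-pore domain channels (Kcnk genes) carry background leak, calcium-activated channels (Kcnma and Kcnn genes) open when intracellular calcium rises, and voltage-gated channels open on depolarisation. Auxiliary subunits (Kcnab, Kcne, Kcnip and Kcnmb genes) bind the pore-forming proteins and alter their gating or trafficking. In macrophages, potassium channels are known to shape calcium entry, volume control and the potassium loss that precedes activation of the NLRP3 inflammasome.

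Values are deposited log2 expression values per probe set. Each array's expression floor is its median over the probe sets that carry a gene name, which came to 4.97 with intralipid plus ANGPTL4, 4.97 with intralipid and 4.98 with PBS. Levels of different genes are not set against each other, since each probe set has its own response. All 14 macrophage markers reached the floor, with a median log2 value of 10.45 with intralipid plus ANGPTL4, 10.21 with intralipid and 9.89 with PBS. Marker by marker the order differed, with a median log2 difference of -0.09 for intralipid against PBS and a summed log2 value of 140.9 with intralipid plus ANGPTL4, 137.9 with intralipid and 138.6 with PBS. None of the 9 measured T and NK cell markers or the 8 mast cell markers did. At the floor or above were 1 of 8 B cell markers (Cd22), 1 of 5 eosinophil markers (Siglecf), 1 of 7 dendritic cell markers (Clec9a), 2 of 7 mesothelial markers, 3 of 10 neutrophil markers and 5 of 7 fibroblast markers. The summed log2 value of the fibroblast markers was 49.99 with intralipid plus ANGPTL4, 50.16 with intralipid and 50.18 with PBS. Erythroid markers had 4 of 7 members measured and 0 at the floor. The cell type behind a transcript cannot be read from these arrays, and fewer cells of a type cannot be told apart from less RNA per cell.

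Most of the family lay below the floor. Of the 92 members, 16 (17.4%) reached it on at least 1 array, against 10090 of all 19938 genes (50.6%). By family these were 2 of 15 inward rectifiers, 1 of 8 calcium- or sodium-activated channels, 4 of 14 two-pore domain channels, 6 of 35 voltage-gated subunits, 2 of 16 auxiliary subunits and 1 of 3 antisense RNAs, while Kcnrg, the only member outside these families, lay below it. Families were assigned from the symbol alone, so the 8 calcium- or sodium-activated channels include Kcnu1 by its symbol only. The 76 members below the floor had a median log2 value of 3.55 with intralipid plus ANGPTL4, 3.57 with intralipid and 3.57 with PBS. Kcnk12, at 5.08 on each array, was the nearest member above the floor, and Kcnk15, at 4.96 on each array, the nearest below it. Being below the floor limits what the array can show and does not mean that a channel is absent.

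**Figure D1:**
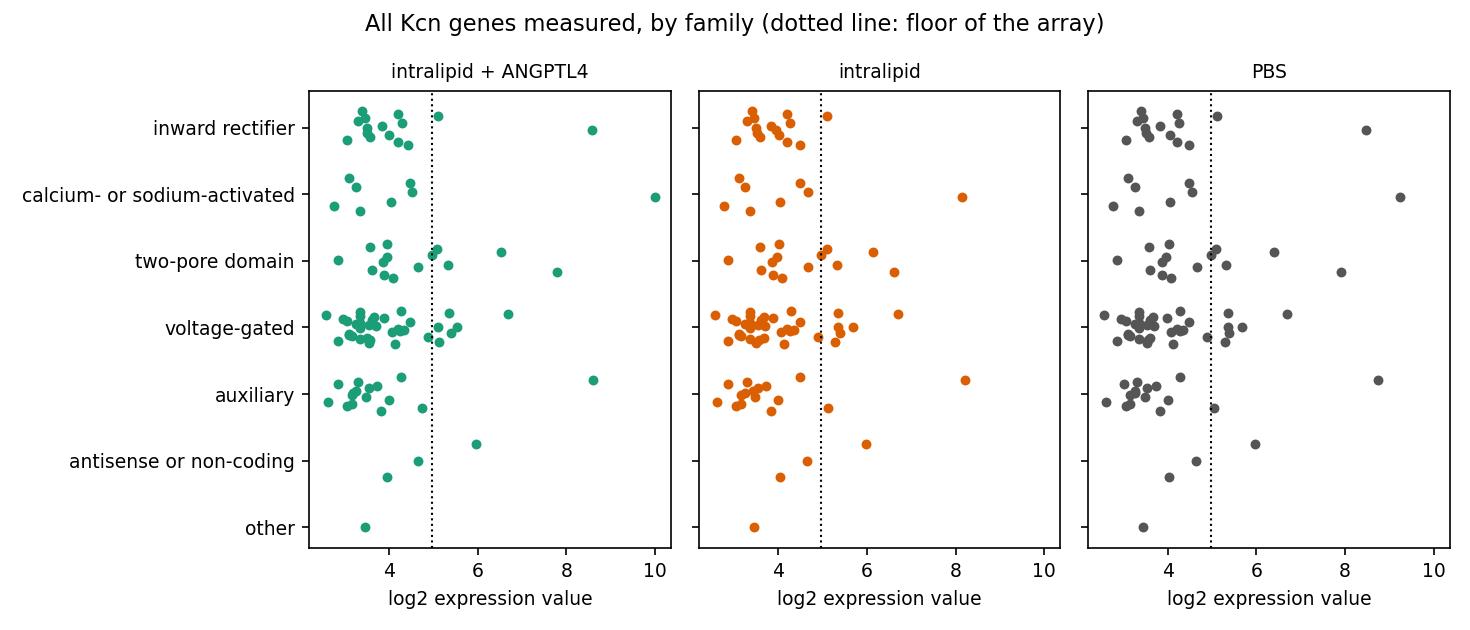
Deposited log2 expression values of the 92 Kcn genes on each of the 3 arrays, grouped by family, with 1 point per gene and the floor of the array as a dotted line. Most points lie left of the floor, and 16 genes reach it on at least 1 array.

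Identical values were frequent, and they bear on how a difference of 0 is read. Of the 92 members, 68 (73.9%) held 1 identical value on all 3 arrays, against 49.3% of all genes. Among the 16 members at the floor or above, 6 did so (Kcna3, Kcnd3os, Kcnh4, Kcnj11, Kcnk12 and Kcnk3), against 25.1% of all genes at the floor or above. Several of these values also recurred on unrelated probe sets. The PBS value of Kcnk12 was shared exactly by 62 other probe sets, that of Kcnh4 by 57, that of Kcnk3 by 52 and that of Kcna3 by 16. A difference of exactly 0 is therefore a feature of the deposited values and is not read as an unchanged transcript. Recurring values were not limited to members with differences of 0. The PBS value of Kcnmb3 was shared by 69 other probe sets, that of Kcnk13 by 7, that of Kcnn4 by 4 and that of Kcnj2 by 1. Those of Kcnk6 and Kcnab2 were shared by 0. What this does to the size of a difference was not tested.

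Kcnj2 encodes an inward-rectifier channel that stabilises the resting potential of many cell types, macrophages among them. Its probe set (10382321) had a log2 value of 8.57 with intralipid plus ANGPTL4, 3.96 with intralipid and 8.48 with PBS. The array with intralipid alone stands apart, 1.01 log2 units below its floor, while the others lie close together. The log2 difference was -4.53 for intralipid against PBS, rank 1 from the lowest of 10049 genes, which is the reason the gene was chosen. It was 4.61 for intralipid plus ANGPTL4 against intralipid, rank 2 from the highest of 10064 genes, and 0.09 for intralipid plus ANGPTL4 against PBS. Both large differences use the same intralipid array, and since its value there is near background, the exact sizes and ranks are uncertain. Set against the floor in place of that value, Kcnj2 with intralipid lay at least 11.4-fold below PBS, and its value with ANGPTL4 at least 12.2-fold above that with intralipid alone. The other inward rectifier at the floor, Kcnj11, the pore of ATP-sensitive potassium channels, was listed at 5.11 on every array. The remaining 13 inward rectifiers lay below the floor throughout. Whether a second Kcnj gene followed Kcnj2 therefore cannot be told from these values.

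Kcnn4 encodes the intermediate-conductance calcium-activated potassium channel, which in blood-derived cells hyperpolarises the membrane and sustains calcium entry. Its probe set (10550877) had a log2 value of 10.00 with intralipid plus ANGPTL4, 8.15 with intralipid and 9.25 with PBS. All values were far above the floor, the lowest with intralipid alone and the highest with ANGPTL4. Relative to PBS, it was 2.14-fold lower with intralipid (log2 difference -1.10, rank 91 from the lowest). With ANGPTL4 it was 3.60-fold above its value with intralipid alone (log2 difference 1.85, rank 36 from the highest). It was also 1.68-fold higher with intralipid plus ANGPTL4 than with PBS (log2 difference 0.75, rank 156 from the highest of 9995 genes), while Kcnj2 differed by 0.09 in the same comparison. The other 7 members placed by symbol among the calcium- or sodium-activated channels, Kcnma1 and Kcnn3 among them, stayed below the floor.

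Kcnk6 encodes a two-pore domain channel, known in mouse macrophages as a route of potassium efflux that triggers the NLRP3 inflammasome. Its probe set (10561702) had a log2 value of 7.78 with intralipid plus ANGPTL4, 6.60 with intralipid and 7.92 with PBS. The intralipid array was again the low one, and here all values lay above the floor. Kcnk6 was 2.50-fold lower with intralipid than with PBS (log2 difference -1.32, rank 44 from the lowest) and, with ANGPTL4, 2.27-fold above its value with intralipid alone (log2 difference 1.18, rank 160 from the highest). With intralipid plus ANGPTL4 it was 1.10-fold lower than with PBS, a log2 difference of -0.14. The related leak channel Kcnk13, the main background potassium conductance of microglia, had log2 values of 6.52 with intralipid plus ANGPTL4, 6.13 with intralipid and 6.40 with PBS. It showed the same order of the intralipid array below the others, at 1.20-fold below PBS. To any extent, 44.4% of all genes were lower with intralipid than with PBS. Kcnk3, an acid-sensitive leak channel, was listed at 5.32 and Kcnk12 at 5.08 on every array.

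The promoter sequences of Kcnj2 and Kcnn4 are shown because these genes were at least 2-fold apart in both comparisons with the intralipid array. Kcnk6 was as well, but it had no window among the promoter sequences used, so it was not searched and is not printed. The sequences shown are RefSeq's windows from 250 bases before to 50 bases after the annotated start, on build GRCm38.p6 and 5′ to 3′ on the gene's strand. Kcnj2 lies at chr11:111065914-111066213 on the plus strand and Kcnn4 at chr7:24370013-24370312 on the plus strand. Capitals mark the E-box in the form CACGTG, which reads the same on both strands. Other forms of the E-box were neither searched nor marked, and below the name stands for these letters only.
Kcnj2: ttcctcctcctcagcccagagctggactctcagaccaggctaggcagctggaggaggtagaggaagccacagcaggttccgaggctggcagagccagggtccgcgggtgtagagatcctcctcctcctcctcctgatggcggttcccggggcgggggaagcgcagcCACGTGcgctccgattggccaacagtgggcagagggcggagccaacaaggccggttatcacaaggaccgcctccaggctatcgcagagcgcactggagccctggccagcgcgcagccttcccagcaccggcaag
Kcnn4: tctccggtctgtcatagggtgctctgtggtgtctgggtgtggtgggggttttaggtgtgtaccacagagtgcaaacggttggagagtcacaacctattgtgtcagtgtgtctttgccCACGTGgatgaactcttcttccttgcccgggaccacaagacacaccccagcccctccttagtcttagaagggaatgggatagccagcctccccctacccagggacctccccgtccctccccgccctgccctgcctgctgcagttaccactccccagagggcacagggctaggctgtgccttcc
The E-box begins 84 bases before the annotated start in Kcnj2 and 133 bases before it in Kcnn4, and no other motif searched overlaps it in either window. Of all 32851 promoter windows of this length, 7.15% hold the E-box on either strand. Among the 16 members at the floor or above, 11 had a window, 14 windows in all, and 3 of these held it. The third was Kcnh4, whose values were identical on all arrays, so the letters were not limited to genes that differed. The AP-1 site (TGANTCA), the cAMP response element (TGACGTCA) and the TATA box (TATAAA) were searched on both strands and had no match in the 14 windows, against 7.81%, 1.79% and 13.6% of all windows. The CCAAT box (CCAAT) was present in 4 of the 14 windows, Kcnj2 among them, and in 37.4% of all windows, and the GC box (GGGCGG) in 9 of the 14 and 35.7%. These motifs were chosen after the sequences had been seen, and a match is a description of letters only.

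Voltage-gated members could hardly show whether they had a counterpart of these differences. Of the 6 at the floor, only Kcna2 differed at all between intralipid and PBS, by a log2 difference of -0.01. Kcna3, a delayed rectifier best known from T cells and also present in macrophages, was listed at a log2 value of 6.69 on every array. Its probe set therefore gave no measure of a response. Kcna2, another pore subunit of its subfamily, had 5.36 on every array to 2 decimals, and its second probe set lay below the floor. Kcnh4 was listed at 5.39 on every array. The modifier subunits Kcng1, Kcng2 and Kcns3, which form channels only together with Kcnb subunits, held the same value with intralipid as with PBS. They were lower with intralipid plus ANGPTL4 than with intralipid by a log2 difference of -0.25 for Kcng1, -0.14 for Kcng2 and -0.15 for Kcns3. The robust SD of that comparison over all genes at the floor or above, taken from the central 68% of genes, was 0.23, so of these Kcng1 lay just outside it and the others inside it. The other 29 voltage-gated members lay below the floor on all arrays.

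Kcnab2, an auxiliary subunit of Kcna channels with the fold of an aldo-keto reductase, followed the direction of Kcnj2 by a smaller step. It had log2 values of 8.59 with intralipid plus ANGPTL4, 8.20 with intralipid and 8.75 with PBS, and the intralipid array was the lowest. It was 1.47-fold lower with intralipid than with PBS (log2 difference -0.55), just outside the 1.5-fold threshold, and, with ANGPTL4, 1.31-fold above its value with intralipid alone. The direction against PBS was shared by 44.4% of all genes. Kcnn4, at 2.14-fold, was the member just inside 2-fold for intralipid against PBS, and Kcnab2 the one just outside. Kcnmb3, an auxiliary subunit of large-conductance calcium-activated channels, had log2 values of 4.75 with intralipid plus ANGPTL4, 5.12 with intralipid and 5.04 with PBS. It was highest with intralipid alone and below the floor with ANGPTL4, and its pore partner Kcnma1 was below the floor on every array. For Kcnmb3, the log2 difference for intralipid against PBS was 0.07, inside the robust SD of 0.20. With ANGPTL4 against intralipid alone it was -0.37, outside the robust SD of 0.23. All values of Kcnmb3 lay near the floor, so no opposite response is read from them. Kcnd3os, a non-coding RNA antisense to Kcnd3, was listed at 5.97 on every array.

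**Figure D2:**
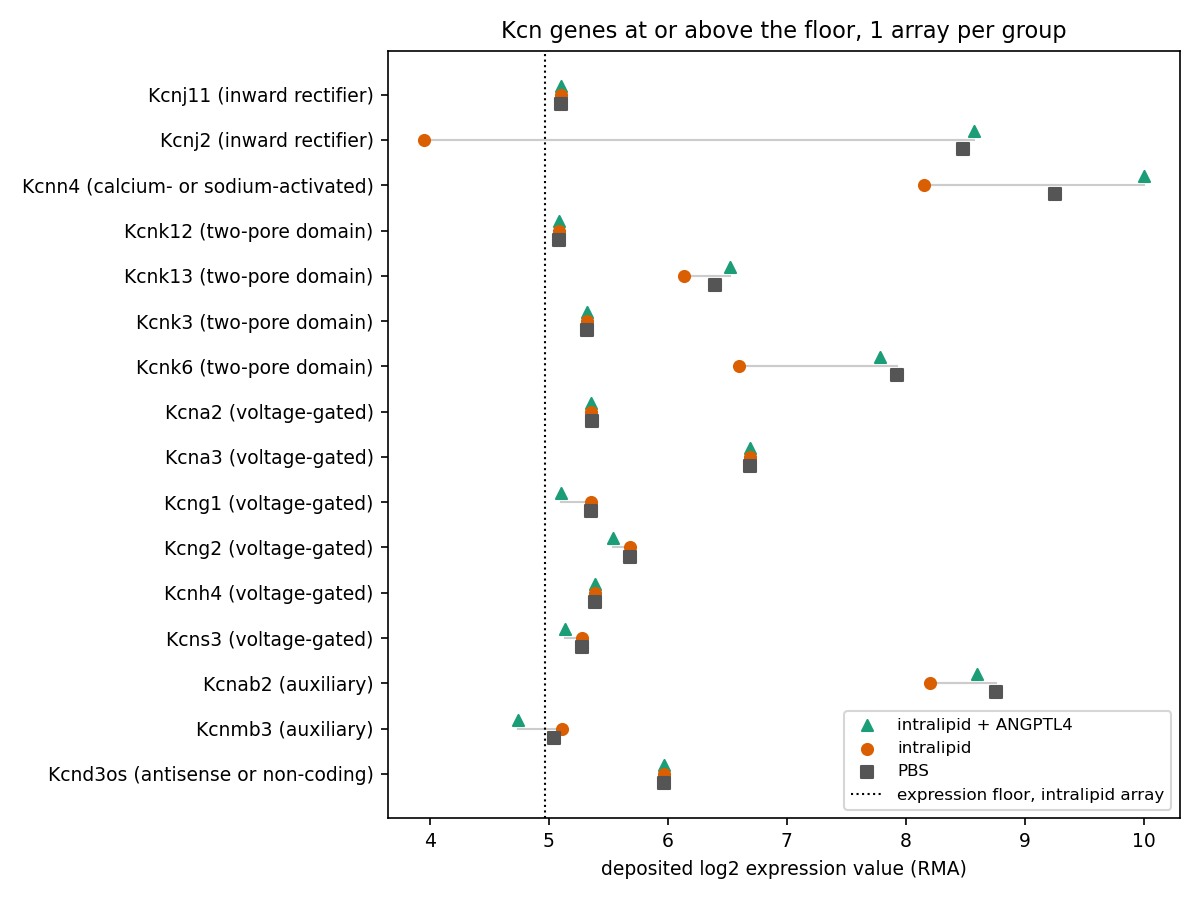
Deposited log2 values of the 16 Kcn genes at the floor or above on at least 1 array, with 1 symbol per array, ordered by family, and the floor of the intralipid array as a dotted line. The intralipid value of Kcnj2 (3.96) lies left of the floor and far from its values with intralipid plus ANGPTL4 (8.57) and PBS (8.48), and Kcnn4, Kcnk6, Kcnab2 and Kcnk13 also have their lowest value on the intralipid array. Over all genes counted, 44.4% were lower with intralipid than with PBS and 46.3% higher with ANGPTL4 than with intralipid alone.

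Counted together, 3 of the 16 members lay at least 2-fold below PBS on the intralipid array (18.8%), namely Kcnj2, Kcnk6 and Kcnn4, and 0 lay that far above it. Over all 10049 genes, 1.32% were this much lower and 2.51% this much higher. Kcnj2 was chosen for this difference, so nothing is read from its part in the count. Without it, 2 of the other 15 were at least 2-fold lower. At 1.5-fold the same 3 members were lower and 0 higher, against 5.57% lower and 5.07% higher over all genes, and 2 of the other 15 were lower without Kcnj2. At 3-fold, 0 of these 15 were lower or higher, Kcnj2 itself being lower by its choice, and the shares over all genes were 0.199% lower and 1.16% higher. Of any size, 6 members were lower with intralipid, 1 was higher and 9 were equal, while 44.4% of all genes were lower, 23.5% higher and 32.1% equal. The median log2 difference of the 16 members was 0.00, as it was over all genes, and for the members this rests on the 9 equal values. Without the members identical on all 3 arrays it was -0.13, and over the 4 members that reached a floor at the 75th percentile (Kcnab2, Kcnj2, Kcnk6 and Kcnn4) it was -1.21. Both of these medians include Kcnj2 and were not computed over all genes in the same way, so they show nothing particular to the family. Kcnj2 and Kcnk6 also passed the 75th percentile floor only on the arrays with PBS and with ANGPTL4. That selection by itself favours members that are low with intralipid. With so few members at the floor, 1 gene more or less moves these shares by 6.25 percentage points.

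For intralipid plus ANGPTL4 against intralipid, the same 3 members were at least 2-fold higher and 0 were at least 2-fold lower, against 2.53% higher and 2.30% lower over all 10064 genes. Kcnj2 and Kcnn4 were also at least 3-fold higher, against 0.586% of all genes, and 0 members at least 3-fold lower, against 1.01%. Of any size, 5 members were higher, 4 lower and 7 equal, against 46.3% higher, 23.0% lower and 30.6% equal over all genes. This comparison uses the same intralipid array as the one before, so the values of one are not independent of those of the other. The low value of Kcnj2 on that array is what it was chosen for, so without it 2 of the other 15 were at least 2-fold higher and 1, Kcnn4, at least 3-fold higher. The median log2 difference of the members was again 0.00, with 7 equal values.

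**Figure D3:**
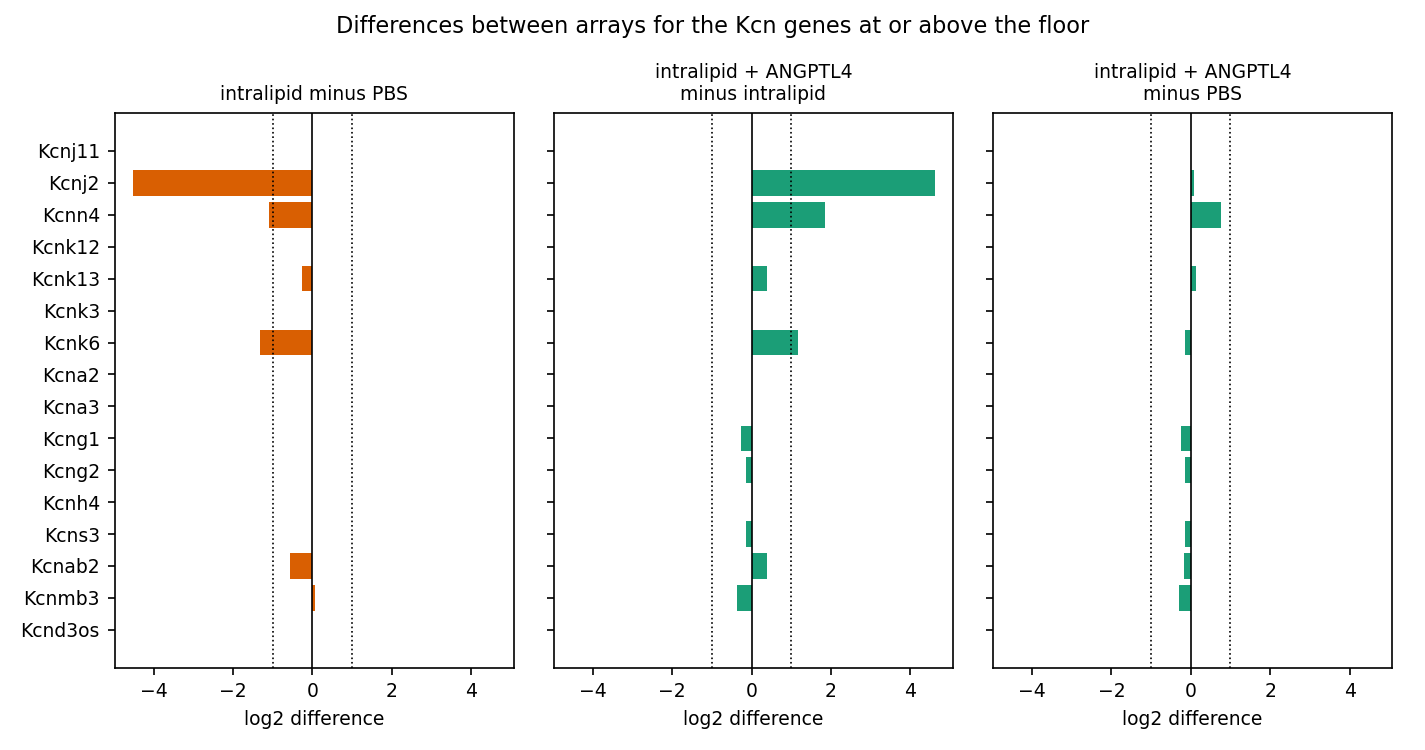
Log2 differences of the 16 Kcn genes between arrays, for intralipid minus PBS (left), intralipid plus ANGPTL4 minus intralipid (middle) and intralipid plus ANGPTL4 minus PBS (right), with dotted lines at 2-fold. Kcnj2, Kcnn4 and Kcnk6 pass the lines in the left panel downward and in the middle panel upward, and no member passes them in the right panel.

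For intralipid plus ANGPTL4 against PBS, no member was at least 2-fold apart in either direction, against 0.85% of 9995 genes higher and 0.04% lower by that much. Kcnn4 was the only member at least 1.5-fold higher, against 2.37% of all genes, and 0 members were at least 1.5-fold lower, against 0.53%. Of any size, 3 members were higher, 7 lower and 6 equal, and over all genes 35.4% were higher, 24.4% lower and 40.2% equal. The lowest member was Kcnmb3, with a log2 difference of -0.30. The robust SD over all genes at the floor or above was 0.10 for this comparison and 0.20 for intralipid against PBS.

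**Figure D4:**
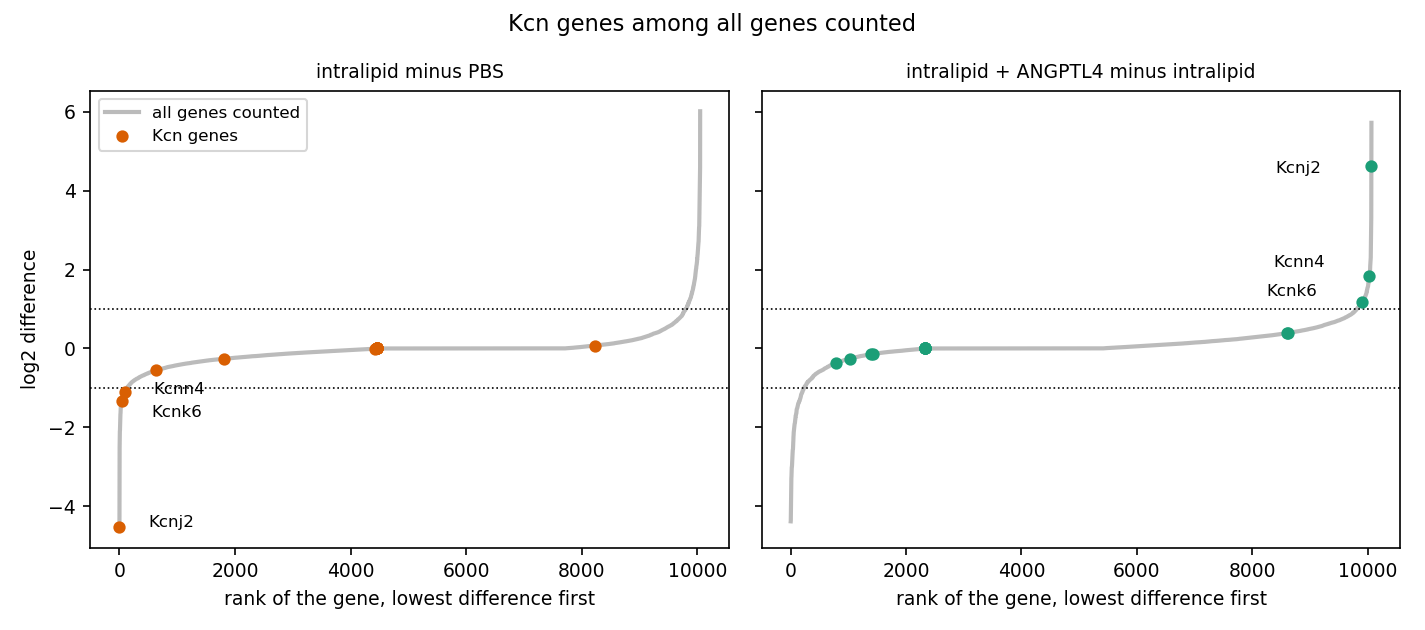
Log2 differences of all genes counted, ranked from the lowest, for intralipid minus PBS (10049 genes, left) and intralipid plus ANGPTL4 minus intralipid (10064 genes, right), with the Kcn genes as points and dotted lines at 2-fold. Kcnj2, Kcnk6 and Kcnn4 hold ranks 1, 44 and 91 from the lowest on the left and ranks 2, 160 and 36 from the highest on the right, while most other Kcn genes lie on the flat part near 0.

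Members below the floor on all arrays gave no further case. None of the 76 was 1.5-fold apart between any pair of arrays, and 62 were identical on all of them. The largest log2 difference for intralipid against PBS was 0.22, for Kcnab1, an auxiliary subunit related to Kcnab2, with 4.50 with intralipid and 4.27 with PBS. The lowest was -0.15, for Kcne1, a small auxiliary subunit, with 2.86 with intralipid and 3.00 with PBS. Among Kcn genes, therefore, at least 2-fold differences were seen only in Kcnj2, Kcnk6 and Kcnn4 in these 3 comparisons.

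Other genes of ion transport and membrane potential were read from a list of 67 symbols chosen by role, of which 62 were measured and 41 reached the floor. The list includes calcium, proton, chloride and endolysosomal channels, so its shares do not describe potassium transport alone. At the floor were 4 Na,K-ATPase genes and 4 cation chloride cotransporters, and 0 of these were 1.5-fold apart in any comparison. For intralipid against PBS, 5 of the 41 were at least 1.5-fold lower (12.2%, against 5.57% of all genes), 0 were at least 1.5-fold higher (against 5.07%) and 0 reached 2-fold in either direction (against 1.32% lower and 2.51% higher). The median log2 difference of the 41 was -0.08. The sodium pump subunits Atp1b1 and Atp1b3 held the same value with intralipid as with PBS.

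The 5 lower genes were Mcoln3, Mcoln2, Clcn3, Tpcn1 and Hvcn1. Of the 6 endosomal and lysosomal two-pore and mucolipin channels at the floor, 3 were at least 1.5-fold lower with intralipid, while Tpcn2 was 1.43-fold higher, Mcoln1 1.09-fold higher and Tmem175 equal. Of the 9 chloride channels at the floor, Clcn3 was the only one at least 1.5-fold lower, 6 others were lower by less, Clcn4 was 1.30-fold higher and Clcn6 equal. Mcoln3, an endolysosomal cation channel of the mucolipin family, had log2 values of 8.30 with intralipid plus ANGPTL4, 7.50 with intralipid and 8.49 with PBS, and was 1.98-fold lower with intralipid than with PBS. Its relative Mcoln2 had 8.65 with intralipid plus ANGPTL4, 7.16 with intralipid and 8.12 with PBS, 1.94-fold lower. Clcn3, a chloride-proton exchanger of endosomes, had 6.79 with intralipid plus ANGPTL4, 6.02 with intralipid and 6.87 with PBS, 1.80-fold lower. In all of these the intralipid array was the lowest. Tpcn1, a two-pore cation channel of endosomes, was 1.61-fold lower with intralipid than with PBS, and Hvcn1, the voltage-gated proton channel that balances charge during the respiratory burst, 1.54-fold lower.

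With ANGPTL4, 6 of the 41 were at least 1.5-fold higher than with intralipid alone (14.6%, against 8.26% of all genes) and 1 at least 1.5-fold lower (2.44%, against 4.95%). Of these, 3 were at least 2-fold higher (7.32% of the 41, against 2.53% of all genes). Orai2, a pore subunit of store-operated calcium entry, had log2 values of 7.33 with intralipid plus ANGPTL4, 5.78 with intralipid and 6.03 with PBS. It was 2.94-fold higher with ANGPTL4 than with intralipid and 2.47-fold higher than with PBS, the only gene of the list at least 1.5-fold apart in that last comparison. Against PBS, 1 of the 41 was thus at least 1.5-fold higher (2.44%, against 2.37% of all genes) and 0 lower (against 0.53%). Against intralipid alone, Mcoln2 was 2.80-fold and Hvcn1 2.25-fold higher with ANGPTL4. Mcoln3 (1.74-fold), Clcn3 (1.70-fold) and Stim2, a calcium sensor of the endoplasmic reticulum (1.70-fold), made up the 6. Lrrc8d, a subunit of the volume-regulated anion channel, went the other way, with log2 values of 8.36 with intralipid plus ANGPTL4, 8.95 with intralipid and 8.38 with PBS. Its value with ANGPTL4 was 1.50-fold below that with intralipid alone. An order of the arrays with ANGPTL4 highest and intralipid alone lowest was seen in 12 of the 41 genes (29.3%), Orai2, Hvcn1, Mcoln2 and Stim2 among them. It was seen in 3 of the 16 Kcn genes (Kcnj2, Kcnk13 and Kcnn4) and in 18.8% of all genes at the floor or above. Tpcn1, Mcoln3 and Clcn3 were highest with PBS.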

How the data were processed

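Expression was measured on 3 arrays, 1 per group, each with RNA pooled from 3 samples. The table holds the log2 value of each probe set as deposited. The authors obtained these log2 values by RMA, which corrects background, normalizes arrays against each other and summarises probes, per the submitters' processing notes. Its version is not given in the sources used here, and the array number limits the precision. Of 35556 probe sets, 21789 had 1 symbol in GEO's platform annotation, 1621 several and 12146 none. All 92 Kcn genes had their gene ID in the RefSeq table, with the same symbol, and 0 had a probe set with several symbols. Values were used as deposited. A gene was counted in a comparison where the higher of both arrays reached its floor, at differences of 2-fold, 1.5-fold and 3-fold. The robust SD is that of the central 68% of genes. Named were members past the floor, the genes of the ion transport list past the floor and 1.5-fold apart between any pair of arrays, and the members next to each threshold. Kcnab1 and Kcne1 were named for the largest differences below the floor. Members and lists were chosen with earlier results of these data known. Counting was tested on simulated data, with differences placed only in genes well above the floor and counted at thresholds below their size. That test did not try genes near the floor or the identical values of the real arrays. Alternatives used R 4.3.3 with limma 3.58.1 and Python 3.11.15 with pandas 2.3.3.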

Additional observations from a re-analysis of the deposited data

How the results depend on the processing

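No paired analysis was possible because each group has 1 array and the labels number no replicates, and for the same reason no array could be left out. The counts at 1.5-fold and 2-fold, the medians and the differences of Kcnj2, Kcnk6 and Kcnn4 were recomputed under 12 settings in all, 9 or 10 for a count, 11 for a median and 7 for a gene's difference: other floors or none, median centring, quantile and cyclic loess normalization, all probe sets of a gene, probe sets with several symbols (which added 0), a 3-fold threshold and subsets of members. Leaving out Kcnj2 or the antisense RNAs was added after seeing the data. Of 210 values, 206 stayed within 1.5 times for a count or 1 robust SD over genes for a difference, and 0 reversed. Many of these values could not change. Using probe sets with several symbols added 0, and only the 3 settings that rescale the arrays can alter a gene's difference. In each comparison with the intralipid array, the count of 3 fell to 2 without Kcnj2, which still lies within the limit. The 206 is therefore not a measure of stability. With a 3-fold threshold, 1 member in place of 3 was lower with intralipid than with PBS. With the floor at the 75th percentile, 4 members were left (Kcnab2, Kcnj2, Kcnk6 and Kcnn4), and their median log2 difference was -1.21 for intralipid against PBS and 1.51 for intralipid plus ANGPTL4 against intralipid. Leaving out members identical on all arrays moved the median for intralipid plus ANGPTL4 against PBS to -0.14. Kcnj2 is among the members under both of these settings, and no median over all genes was computed under either. Kcnj2 and Kcnk6 passed the 75th percentile floor only on the arrays with PBS and with ANGPTL4, which favours low values with intralipid. Over their 7 settings, of which the 3 that rescale the arrays can alter it, the difference for intralipid against PBS ran from -4.57 to -4.51 for Kcnj2, from -1.32 to -1.30 for Kcnk6 and from -1.10 to -1.08 for Kcnn4. The signal near background limits Kcnj2 on the intralipid array and the 76 members below the floor.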
